A study of Mus musculus with 18 samples.

Results

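The genes described here are those of major histocompatibility complex (MHC) class II antigen presentation. They were chosen by symbol, with earlier results of these data known, as H2-Aa, H2-Ab1, H2-Eb1, Cd74, H2-DMa, H2-DMb1 and Ciita. All 7 were found among the 23474 gene rows of the table. Each was followed over 18 libraries of mRNA sequencing from epididymal white adipose tissue (eWAT, the fat pad beside the epididymis) and liver of male C57BL/6J mice, a strain that the labels also spell C56BL/6J. Each tissue had 3 libraries from high-fat diet-prone mice (HP), 3 from high-fat diet-resistant mice (HR) and 3 from mice on a normal diet (ND). All mice were 17 weeks old, had been on their diet for 12 weeks from 5 weeks of age and were housed singly. Per the labels the mice were divided at random, with no statement of how prone animals were separated from resistant ones. Nor do the labels tie each library to its own mouse, so the p-values below reflect the scatter of the libraries, part of which may be technical. The values were FPKM, fragment counts set relative to transcript length and to the mapped fragments of the library, which carry no total, so the depth behind each value is unknown.

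MHC class II molecules display peptides from engulfed material to CD4+ T cells and are made mainly by dendritic cells, B cells and macrophages. An alpha and a beta chain (H2-Aa with H2-Ab1 in the mouse I-A molecule, and H2-Eb1 as the beta chain of I-E) are assembled on the invariant chain Cd74, which blocks the peptide groove until it is cut by lysosomal proteases. H2-DM, a dimer of H2-DMa and H2-DMb1, then exchanges the last piece of Cd74 for a peptide. Ciita is a co-activator that does not bind DNA itself and acts through a complex of RFX, CREB and NF-Y factors on the W/S, X and Y boxes upstream of these genes. C57BL/6 mice do not make the I-E alpha chain, so H2-Eb1 transcripts in this strain lack their usual partner. In adipose tissue of obese mice, macrophages carrying class II molecules are a well known feature.

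The promoters of H2-Aa, H2-Eb1 and H2-DMb1, and of H2-DMb2, a near-identical neighbour of H2-DMb1, are shown. The factors that recruit Ciita are known to act on boxes upstream of class II genes. No binding was measured here, and a link between these boxes and the levels of the genes was not tested. RefSeq entries matched 4 of the 7 genes (H2-Aa, H2-Eb1, H2-DMa and H2-DMb1). The sequences are the 150 bases before the annotated start, from the gene's own strand, in build GRCm38.p6 of RefSeq. They lie at chr17:34287824-34287973 on the minus strand (H2-Aa) and, on the plus strand, at chr17:34305717-34305866 (H2-Eb1), chr17:34153041-34153190 (H2-DMb1) and chr17:34145099-34145248 (H2-DMb2). Capitals mark an X box core (GNNACNGAT), an X2 core (TGACG) or a Y box (ATTGG) as read on the gene's strand.
H2-Aa: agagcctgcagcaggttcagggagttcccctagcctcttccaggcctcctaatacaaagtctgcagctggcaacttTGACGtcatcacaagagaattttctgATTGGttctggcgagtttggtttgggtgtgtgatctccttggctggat
H2-Eb1: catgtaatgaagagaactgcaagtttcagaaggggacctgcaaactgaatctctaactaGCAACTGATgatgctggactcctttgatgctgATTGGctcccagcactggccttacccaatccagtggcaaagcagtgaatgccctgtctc
H2-DMb1: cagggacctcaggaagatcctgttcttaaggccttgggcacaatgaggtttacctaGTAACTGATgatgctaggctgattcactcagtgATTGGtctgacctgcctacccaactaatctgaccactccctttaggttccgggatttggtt
H2-DMb2: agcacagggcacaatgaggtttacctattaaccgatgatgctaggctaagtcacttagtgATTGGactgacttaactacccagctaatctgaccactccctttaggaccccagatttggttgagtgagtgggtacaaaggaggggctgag
All 250 bases before each start were searched on both strands. H2-Eb1 held the X box core at -91 to -83 and a Y box at -59 to -55 from the start, with another on the opposite strand at -35 to -31, and H2-DMb1 held them at -94 to -86 and -61 to -57. H2-Aa held TGACG at -74 to -70, inside a palindrome that gave an overlapping match on the other strand, and a Y box at -48 to -44. In H2-DMb2 the Y box was found at -90 to -86 and the X box core letters were not found in this window. Neither of the RefSeq starts of H2-DMa had the X box core, and its only match was a Y box at -198 to -194 from the second start. Over 32851 mouse promoters of the same length, the X box core occurred in 6.53%, TGACG in 17.8% and ATTGG in 33.8%. An X box core followed within 40 bases by a Y box on the same strand occurred in 31 promoters, or 0.0944%. Among them were those of H2-Eb1, H2-DMb1 and H2-Eb2 and of the class I genes H2-D1, H2-M3, H2-Q4, H2-Q6 and H2-Q7. Most of the 31 were not of H2 genes, for example those of Cdv3, Dnmt1, Ggt1, Gpr108, Slc1a4 and Ube2c. The X box letters had been shortened after a first search with longer letters was seen. A match of letters is a description of the window and not a shown binding site.

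Among eWAT libraries, HR 2 and ND 1 were unlike the others. Their median correlations with the other eWAT libraries across genes were 0.425 for HR 2 and 0.328 for ND 1, against 0.810 to 0.935 for the other 7 eWAT libraries and 0.958 to 0.979 for liver. Spermatid transcripts (Prm1, Prm2, Tnp1, Tnp2) together reached 1738 FPKM in HP 1, 11231 FPKM in HR 2, 92413 FPKM in ND 1 and 2282 FPKM in ND 3. The other eWAT libraries had 7.47 to 128 FPKM of them and liver libraries had 0. Adipocyte transcripts (Adipoq, Cidec, Fabp4 and Plin1) came to 4760 FPKM in HR 2 and 3533 FPKM in ND 1, against 14984 to 29573 FPKM in the other eWAT libraries. The hepatocyte genes Alb, Apoa1, Ttr and Fgb summed to 13449 to 44468 FPKM in liver and to at most 8.66 FPKM in eWAT, with Alb listed at 0 in liver HP 3. Since FPKM is a share of all mapped fragments, each eWAT comparison is given over 9 libraries and over the 7 without ND 1 and HR 2, which leaves 3 HP, 2 HR and 2 ND libraries. Epididymis transcripts (Lcn8, Gpx5, Crisp1, Lcn5 and Defb2) together reached 17498 FPKM in ND 1 and 1249 FPKM in HP 2. The other eWAT libraries had 0.109 to 11.4 FPKM of them. HP 2 was kept in the fit over 7 libraries and in the fit without the libraries high in spermatid transcripts. The part that testis and epididymis RNA plays in the eWAT results was not tested beyond this.

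In eWAT the class II chains had their highest mean levels in HP. H2-Aa, the alpha chain of I-A, had 791, 676 and 664 FPKM in HP libraries 1 to 3, 554, 149.5 and 594 FPKM in HR, and 119, 359 and 269 FPKM in ND. H2-Ab1, its beta chain, had 619, 439.6 and 482 FPKM in HP, 435, 117 and 430.4 FPKM in HR, and 69.0, 183 and 185 FPKM in ND. H2-Eb1, the beta chain of I-E, had 587, 414 and 462 FPKM in HP, 421, 119 and 432 FPKM in HR, and 100.1, 233 and 196 FPKM in ND. For each of the 3 chains every HP library was above every ND library, as was so for 20.8% of all tested genes. HR 2 lay within the ND range, and the other HR libraries lay above all ND libraries. HP lay wholly above HR for H2-Aa and H2-Ab1 (16.7% of all genes), whereas for H2-Eb1 HP 2 fell below both HR 1 and HR 3. H2-Ab1 averaged 514 ± 94.0 FPKM in HP, 327 ± 183 FPKM in HR and 146 ± 66.5 FPKM in ND (SD, n = 3 each).

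Cd74 was the most abundant of the 7 genes in each library of both tissues. It had 1406, 1041 and 1159 FPKM in HP eWAT, 999, 269 and 1102 FPKM in HR eWAT, and 149, 565 and 472 FPKM in ND eWAT. Its order over the groups was that of the chains, with HR 3 above HP 2, and its means were 1202 ± 187 FPKM in HP, 790.2 ± 454 FPKM in HR and 395 ± 218 FPKM in ND (SD, n = 3 each). These are whole-tissue levels, in which fewer cells of a type and less RNA per cell cannot be told apart.

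The peptide editor H2-DM was expressed at a lower level per length, and its chains differed from each other. H2-DMa had 52.4, 33.1 and 34.8 FPKM in HP, 41.9, 15.6 and 44.8 FPKM in HR, and 26.3, 19.1 and 15.98 FPKM in ND. H2-DMb1 had 89.4, 74.4 and 78.7 FPKM in HP, 51.7, 11.1 and 59.3 FPKM in HR, and 13.0, 16.8 and 17.1 FPKM in ND. For H2-DMb1 the lowest HP library was above every HR library, and HR 1 and HR 3 were above every ND library. The ND 1 library, low for the chains, was the highest ND library for H2-DMa. Reads of H2-DMb1 and H2-DMb2 can be hard to assign because the genes are near-identical, and the counting is not described in the sources used here, so both values are uncertain. H2-DMb2 was listed at 2.18, 2.61 and 2.73 FPKM in HP, 4.10, 1.46 and 5.02 FPKM in HR, and 21.2, 1.93 and 4.17 FPKM in ND, with its highest value in ND 1. The ratio of H2-DMb1 to H2-DMa, both per length, was 1.71 to 2.26 in HP, 0.708 to 1.32 in HR and 0.493 to 1.07 in ND, so that the HP range lay above those of HR and ND.

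Ciita, the co-activator, was the least abundant member, with 9.38, 10.1 and 9.30 FPKM in HP, 6.52, 1.62 and 10.2 FPKM in HR, and 0.150, 2.41 and 3.23 FPKM in ND. The HP values lay close together and above all ND values, while HR 3 was level with the highest HP library and HR 2 fell within the ND range.

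**Figure D1:**
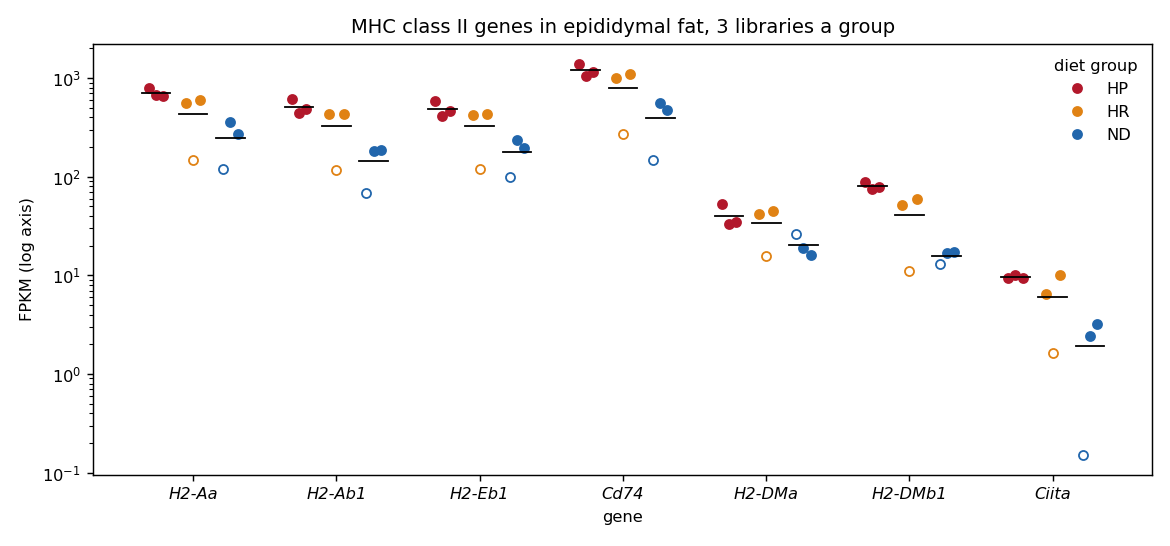
FPKM of each of the 7 genes in the 9 eWAT libraries on a log axis, with HP, HR and ND from left to right. Points are libraries, open circles are ND 1 and HR 2, and bars are means over 3 libraries: every HP point lies above every ND point in all 7 genes, and HR 2 lies far below the other HR points.

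Over all 9 eWAT libraries none of the 7 genes passed the threshold of 0.05 in HP against ND, although their groups did not overlap. The test was limma on log2(FPKM + 1), two-sided, with Benjamini-Hochberg adjustment over 14430 genes, a scale on which the change of low genes is understated. The differences were 0.93 (H2-DMa) to 2.31 (H2-DMb1) on the log2 scale, with adjusted p of 0.105 to 0.503. Unadjusted p was under 0.05 for 6 of the 7, all but H2-DMa, and for 11.4% of all genes. At the adjusted threshold 304 genes, 2.11% of those tested, were called in either direction. All 7 genes had HP libraries above all ND libraries, which 20.8% of the tested genes also had. In HR against ND the 7 differences were 0.60 to 1.24 with an adjusted p of 0.990, all groups overlapped, and none of the 7 had an unadjusted p under 0.05. No gene in the table was called there (0.0%), with 392 genes (2.72%) at an unadjusted p under 0.05. In HP against HR the differences were 0.33 to 1.28 with an adjusted p of 0.958, none of the 7 had an unadjusted p under 0.05, and 0.0% of genes were called, with 679 genes (4.71%) at an unadjusted p under 0.05. The HP libraries lay above all HR libraries for 3 of the 7, namely H2-Aa, H2-Ab1 and H2-DMb1, as they did for 16.7% of all genes.

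Without HR 2 and ND 1, all 7 genes rose in HP against ND. H2-DMb1 had the largest change, of 2.19 ± 0.13 on the log2 scale (SE, limma adjusted p = 0.000136) and 4.78-fold in mean FPKM. Ciita followed at 1.48 ± 0.21 (adjusted p = 0.00379, 3.40-fold). The chains rose by 1.46 ± 0.16 (H2-Ab1, adjusted p = 0.00143, 2.79-fold), 1.18 ± 0.16 (H2-Aa, 0.00338, 2.26-fold) and 1.17 ± 0.17 (H2-Eb1, 0.00451, 2.27-fold). Cd74 rose by 1.21 ± 0.18 (adjusted p = 0.00401, 2.32-fold) and H2-DMa by 1.12 ± 0.21 (adjusted p = 0.0114, 2.28-fold). All members but H2-DMb1 thus lay within 1.12 to 1.48. Of the 13054 genes tested over these libraries 15.7% were called higher in HP, and the median difference of all genes was 0.01 against 1.21 for the 7. When the 4 libraries with over 1000 FPKM of spermatid genes (HP 1, HR 2, ND 1 and ND 3) were left out, all 7 members were again called, as were 27.3% of all genes in either direction. That fit had 1 ND library, which was assumed to vary like the others.

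In HR against ND over the 7 libraries, the 7 genes also rose, by 0.88 ± 0.18 (H2-Aa, limma adjusted p = 0.0490) to 1.65 ± 0.14 on the log2 scale (H2-DMb1, adjusted p = 0.00281). The changes of the others were 0.99 for H2-Eb1, 1.02 for Cd74, 1.23 for H2-Ab1, 1.26 for H2-DMa and 1.27 for Ciita, with adjusted p of 0.0157 to 0.0406. The genes called higher there made up 3.85% of those tested, and the median difference was 0.02 over all genes and 1.23 over the 7. With 2 libraries on each side these calls depended on single libraries. The number of members called was 2 without HP 2 and 2 without HP 3, with H2-DMb1 called in both. In those fits 305 of 12873 and 274 of 12940 genes were called. Leaving out HR 1, HR 3 or ND 3 left 1 library in a group, and the median difference of the 7 was then 1.22, 0.98 and 1.14. The calls also depended on the treatment of the values. They were 2 of 7 when genes were not filtered on level (341 of 19995 genes) and 3 after rescaling by median ratios (433 of 13054 genes). They were 4 without a variance trend (449 of 13054 genes) and 1 (H2-DMb1) when HP was kept out of the fit (54 of 12275 genes). With HP 1, HR 2, ND 1 and ND 3 all left out, 6 of the 7 were called, all but H2-Aa, against 11.9% of all genes.

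Between HP and HR over the 7 libraries, none of the 7 genes passed the threshold, where 6.46% of all genes did and 4.21% were called higher in HP. H2-DMb1 came nearest, at 0.53 with a 95% interval of 0.23 to 0.83 (limma adjusted p = 0.0569, unadjusted p = 0.00422). It was called when ND was kept out of the fit, where 1970 of 12526 genes were called, against 843 of 13054 with ND in it. It was the single member with an unadjusted p under 0.05, which 23.5% of all genes had. The intervals of the others held 0: 0.30 (-0.09 to 0.70) for H2-Aa, 0.23 (-0.16 to 0.62) for H2-Ab1, 0.18 (-0.24 to 0.59) for H2-Eb1 and 0.18 (-0.23 to 0.60) for Cd74. H2-DMa was at -0.14 (-0.65 to 0.37) and Ciita at 0.21 (-0.29 to 0.72). Differences of up to 0.72 on the log2 scale lie within the intervals of these 6 genes.

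**Figure D2:**
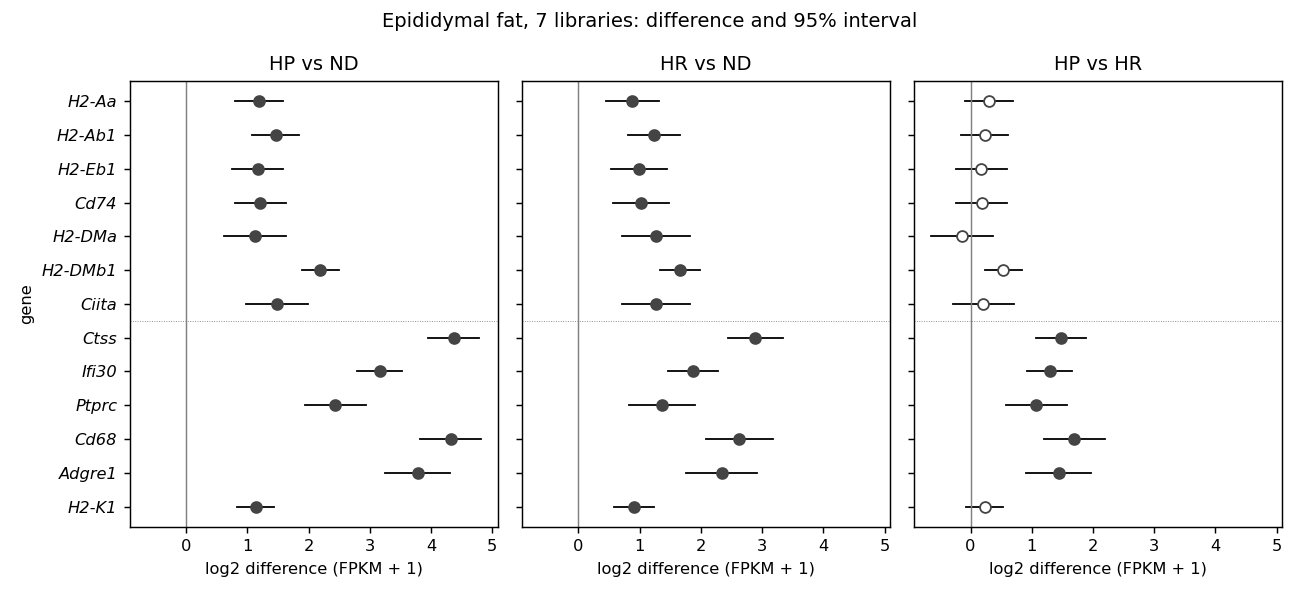
Log2 differences in eWAT over 7 libraries for HP against ND, HR against ND and HP against HR. Lines are 95% intervals and filled points mark an adjusted p under 0.05. The rows are the 7 class II genes and, below them, Ctss, Ifi30, Ptprc, Cd68, Adgre1 and H2-K1. All 7 class II genes are filled in both comparisons with ND and none of them in HP against HR.

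Genes that work with class II molecules were read as lists next to the 7. Of 12 other class II genes and partners in the table, 10 were tested over the 7 eWAT libraries, and 6 rose in HP against ND (15.7% of all genes), with a median of 1.52 on the log2 scale. Ctss, cathepsin S, the protease that makes the last cut in Cd74, had 902, 719 and 913 FPKM in HP, 289.6, 61.6 and 312 FPKM in HR, and 5.26, 45.9 and 34.3 FPKM in ND. Ctss rose by 4.37 ± 0.17 in HP against ND (limma adjusted p = 6.85e-05), by 2.89 ± 0.19 in HR against ND (0.00178) and by 1.48 ± 0.17 in HP against HR (0.0177). Ifi30, a lysosomal thiol reductase, rose by 3.16, 1.87 and 1.29 in the same 3 comparisons, Lgmn, the protease legumain, by 2.81, 1.81 and 1.00, and Ctsl, cathepsin L, by 1.93, 1.21 and 0.72. These 4 genes were the whole set called in HR against ND and in HP against HR, where the list's medians were 0.84 and 0.61 and 3.85% and 4.21% of all genes rose. Over all 9 libraries Ctss, Ifi30 and Lgmn were called in HP against ND, by 5.27, 3.03 and 3.05. The proteases and the reductase thus passed the test in HP against HR, which none of the 7 class II genes did, though the difference between those genes and the 7 was not tested.

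The DNA-binding partners of Ciita were called at about the rate of all genes in HP against ND. Of 7 genes for RFX, CREB and NF-Y subunits, 1 rose in HP against ND over the 7 eWAT libraries, namely Nfya at 1.23 ± 0.23 (limma adjusted p = 0.0112), where 15.7% of all genes rose, and the list's median was 0.02. None of the 7 was called in HR against ND or in HP against HR, while 4.14% and 6.46% of all genes were. Of 7 tested genes of interferon gamma signalling, the main known inducer of Ciita outside professional antigen-presenting cells, Ifngr2 (0.87) and Jak1 (0.64) rose in HP against ND (15.7% of all genes), with a list median of 0.03. Ifng itself did not exceed 0.143 FPKM in any of the 18 libraries. Of the MHC class I presentation genes, 5 of 12 tested were called higher in HP against ND with a median of 0.30, led by H2-K1 at 1.14 ± 0.13 (adjusted p = 0.0014), and 3 of 12 in HR against ND, where 15.7% and 3.85% of all genes were called higher. H2-K1 and its relatives share stretches of sequence, which makes their single values uncertain. Nlrc5, the class I counterpart of Ciita, was at -0.28 in HP against ND (adjusted p = 0.347).

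Macrophage genes and the pan-leukocyte gene Ptprc rose in the same comparisons over 7 libraries, and dendritic cell and B cell genes were not called in them. The macrophage genes Adgre1, Cd68, Csf1r, Lyz2, Mertk and Fcgr1 summed to 2689 to 3763 FPKM in HP eWAT, 409 to 1589 FPKM in HR and 53.6 to 524 FPKM in ND. Over the 7 libraries 5 of the 6 rose in each of HP against ND, HR against ND and HP against HR, with medians of 2.57, 1.41 and 1.20, where 15.7%, 3.85% and 4.21% of all genes rose. The pan-leukocyte gene Ptprc (CD45) had 59.9, 65.8 and 69.3 FPKM in HP, 25.3, 6.15 and 36.2 FPKM in HR, and 0.549, 13.4 and 9.25 FPKM in ND. Ptprc rose by 2.44 ± 0.21 in HP against ND, by 1.36 ± 0.23 in HR against ND and by 1.07 ± 0.21 in HP against HR (limma adjusted p = 0.000482, 0.0250 and 0.0351). The dendritic cell genes Flt3, Zbtb46, Xcr1, Clec9a, Cd209a, Itgae, Ccr7 and Batf3 summed to 17.3 to 24.3 FPKM in HP, 17.5 to 28.3 FPKM in HR and 22.8 to 27.3 FPKM in ND, and none of the 4 tested over the 7 libraries was called in any of the 3 comparisons. B cell genes summed to 2.90 to 16.2 FPKM and T cell genes to 5.30 to 10.7 FPKM over all eWAT libraries, with none of 2 and none of 3 tested genes called, and Ms4a1 was listed at 0 throughout. Adipocyte genes moved the other way over the 7 libraries. In HP against ND, 3 of 4 fell (Adipoq by 1.19, Plin1 by 1.06 and Cidec by 0.88, list median -0.97), where 7.4% of all genes fell. In HP against HR, 2 of 4 fell (Plin1 by 1.01 and Cidec by 0.90, list median -0.84; 2.25% of all genes), and none of the 4 was called in HR against ND (0.291% of all genes fell). The part of these cells, and of the share of adipocyte RNA in a library, in the class II result was not tested.

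**Figure D3:**
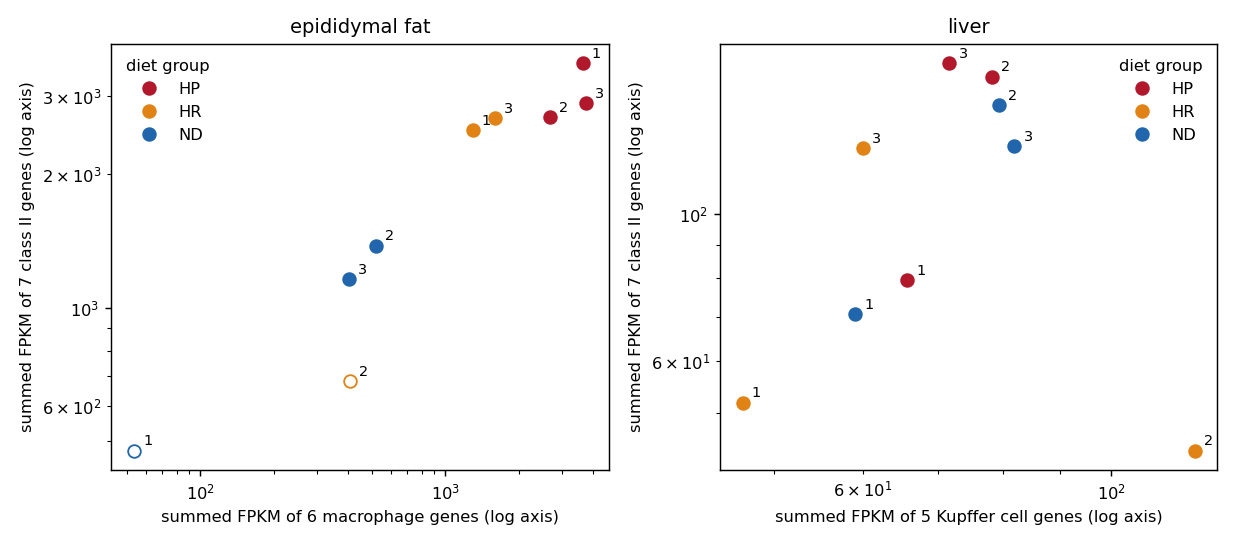
Summed FPKM of the 7 class II genes against that of macrophage genes in eWAT or Kupffer cell genes in liver, on log axes. Points are libraries, and colours mark HP, HR and ND. In eWAT the class II sum was 2688 to 3555 FPKM in HP, 682 to 2673 FPKM in HR and 476 to 1379 FPKM in ND, and the macrophage sum spread more widely than it did.

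Set against Ptprc, the class II genes were lower in HP eWAT. The ratio of Cd74 to Ptprc, both in FPKM, was 23.5, 15.8 and 16.7 in HP, 39.5, 43.8 and 30.5 in HR, and 271, 42.1 and 51.0 in ND. The HP libraries lay below all others, and the HR and ND ranges overlapped by HR 2 and ND 2. The ratio of H2-Ab1 to Ptprc was 10.3, 6.68 and 6.96 in HP, 17.2, 19.0 and 11.9 in HR, and 126, 13.7 and 20.0 in ND. Ratios to Ptprc were lower without overlap for 6 of the 7 genes in HP against ND, all but H2-DMb1, where 84.7% of all tested genes were so too. They were lower for 7 of 7 in HP against HR (74.0% of all genes) and for 1 of 7, H2-Aa, in HR against ND (19.9%). These shares of members are near those of all genes in HP against ND and HR against ND, and Ptprc itself sets the direction. An exact test of 3 against 3 libraries cannot go below p = 0.10, so none was run.

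The proportions among the members varied to different extents. Cd74 was 2.16 to 3.08 times H2-Ab1 in the 9 eWAT libraries and 2.29 to 3.71 times in the 9 liver libraries, per length. H2-Aa was 1.27 to 1.96 times H2-Ab1 in eWAT, with a median of 1.38, and its median in liver was 1.34 times. Over the 9 eWAT libraries H2-DMa was 0.0723 to 0.381 times H2-Ab1 and Ciita was 0.00217 to 0.0236 times H2-Ab1, and over the 7 without HR 2 and ND 1 these ranges were 0.0723 to 0.104 and 0.0132 to 0.0236. The 4 most abundant members, H2-Aa, H2-Ab1, H2-Eb1 and Cd74, had pairwise Pearson correlations of log2(FPKM + 1) of 0.965 to 0.998 over 7 eWAT libraries and of 0.972 to 0.987 over 9 liver libraries. For Ciita with the other 6 the correlations were 0.861 to 0.965 in eWAT and 0.581 to 0.713 in liver, where its values are below 1 FPKM. These correlations were taken across all 3 diet groups and so include the differences between groups. Differences in tissue makeup and depth between libraries may enter them too.

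Genes with the most similar pattern were ranked by their correlation with the mean of the standardised H2-Aa, H2-Ab1, H2-Eb1 and Cd74 values. Over 7 eWAT libraries, 9405 genes with a mean of at least 5 FPKM were ranked, and the nearest outside the 7 were Adap1 (0.996), Rab29 (0.995), Slc35b2 (0.989), F7 (0.988), Mvk (0.987), Tpi1 (0.987), Marc1 (0.987) and Ano8 (0.986). F7, coagulation factor VII, had 61.0, 32.0 and 38.9 FPKM in HP, 20.8, 4.52 and 22.0 FPKM in HR, and 0.403, 0.285 and 0.297 FPKM in ND. H2-DMb1 stood at rank 23, H2-DMa at 176 and Ciita at 486 of that order. Over 9 liver libraries and 6553 genes, the nearest were Ecm1 (0.937), Bgn (0.922), Eng (0.915), Stab1 (0.894), Gsn (0.888), Ly6e (0.880), Nlrc5 (0.876) and Dcn (0.868), and no gene was named in both tissues.

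In liver the 7 genes were low and did not pass the test between diets. H2-Aa had 17.4, 36.5 and 39.95 FPKM in HP, 10.3, 8.37 and 24.8 FPKM in HR, and 15.5, 30.6 and 27.8 FPKM in ND. H2-Ab1 had 12.8, 26.6 and 26.6 FPKM in HP, 8.43, 5.86 and 22.1 FPKM in HR, and 11.8, 26.9 and 20.8 FPKM in ND. H2-Eb1 had 12.6, 30.6 and 29.3 FPKM in HP, 7.69, 6.21 and 20.0 FPKM in HR, and 9.62, 20.9 and 18.5 FPKM in ND. In each chain the libraries HP 1, HR 1, HR 2 and ND 1 were low and the other 5 were high, so that every group held both kinds and all groups overlapped. Cd74 followed the same split, with 32.6, 61.9 and 65.7 FPKM in HP, 22.4, 21.7 and 53.6 FPKM in HR, and 30.6, 61.6 and 54.6 FPKM in ND. H2-DMa had 1.998, 2.69 and 2.57 FPKM in HP, 1.61, 0.974 and 2.09 FPKM in HR, and 0.961, 2.69 and 2.30 FPKM in ND. H2-DMb1 had 1.85, 2.91 and 4.55 FPKM in HP, 1.30, 0.663 and 2.95 FPKM in HR, and 2.02, 2.78 and 2.29 FPKM in ND. HR 2 was the lowest liver library for H2-DMb1 and ND 1 for H2-DMa. Ciita had 0.186, 0.185 and 0.407 FPKM in HP, 0.157, 0.105 and 0.223 FPKM in HR, and 0.227, 0.569 and 0.437 FPKM in ND, below the filter of 1 FPKM in 3 libraries, so 6 of the 7 were tested.

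**Figure D4:**
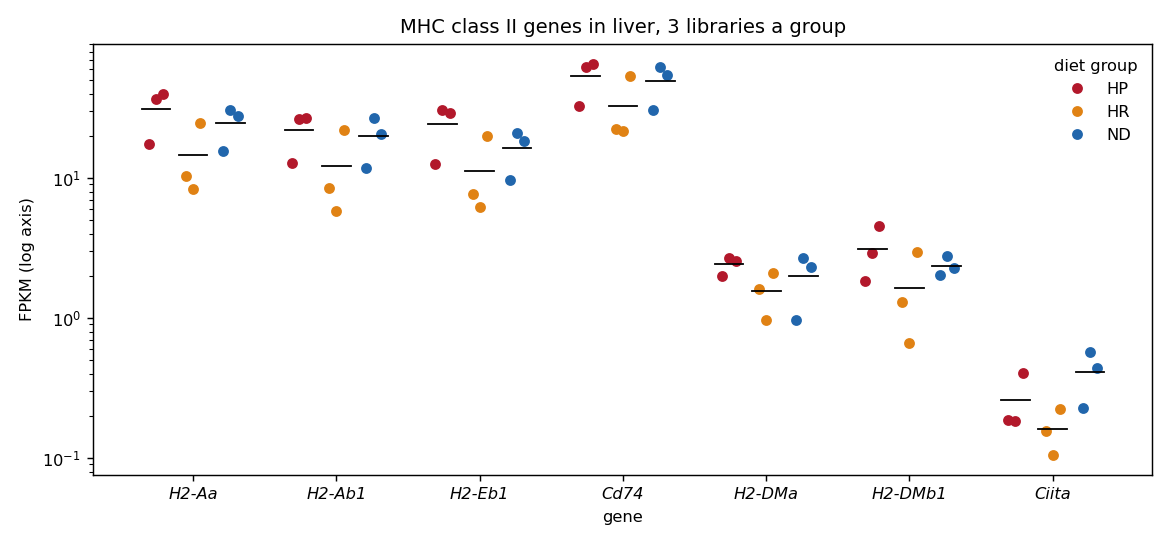
FPKM of each of the 7 genes in the 9 liver libraries on a log axis, with HP, HR and ND from left to right, points for libraries and bars for means over 3 libraries. The groups overlap in every gene, and Ciita reaches at most 0.569 FPKM.

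None of the 6 tested genes was called in HP against ND liver, where 31.7% of 10633 tested genes were called and 17.6% of those tested were called higher. Their differences were 0.12 (Cd74) to 0.51 (H2-Eb1), with limma adjusted p of 0.389 to 0.831, and none had an unadjusted p under 0.05 (43.8% of all genes). In HR against ND the differences were -0.82 (H2-Aa) to -0.20 (H2-DMa), with adjusted p of 0.286 to 0.692 and no unadjusted p under 0.05 (19.8% of all genes), while 3.24% of all genes were called and 0.969% were called lower. In HP against HR the differences were 0.44 (H2-DMa) to 1.12 (H2-Aa, 95% interval 0.24 to 2.01), with adjusted p of 0.0914 to 0.234. There 3 of the 6, H2-Aa, H2-Eb1 and H2-DMb1, had an unadjusted p under 0.05, as did 30.7% of all genes. At the adjusted threshold 11.1% of all genes were called, and 7.2% were called higher in HP. H2-Aa and H2-Eb1 were called in HP against HR when HP 1 or HR 3 was left out. In those fits 1424 of 10579 and 456 of 10600 genes were called.

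Some other presentation genes did pass the test in liver. MHC class I genes rose in HP against ND liver for 5 of 12 tested (median 0.24; 17.6% of all genes rose), among them H2-D1 at 0.58 ± 0.14 (limma adjusted p = 0.0104) and B2m, the shared class I light chain, at 0.67 ± 0.17 (adjusted p = 0.0143). Ifi30 rose by 1.23 ± 0.19 (adjusted p = 0.0016) and was the only one called of 5 other class II partners. Of the 7 Ciita partners, Rfx5 fell by 0.64 and Nfya fell by 0.50 (adjusted p = 0.0287 and 0.0216), where 1502 of 10633 genes were called lower. The median of the partners was -0.31. No gene of these lists was called in HR against ND. The Kupffer cell genes Clec4f, Vsig4, Timd4, Marco and Cd5l, which mark the resident macrophages of liver, summed to 65.7 to 78.2 FPKM in HP, 46.8 to 119 FPKM in HR and 59.0 to 81.9 FPKM in ND. The highest sum was in HR 2, the library with the lowest class II sum (43.9 FPKM), and none of the 5 was called in HP against ND or HR against ND. In HP against HR liver, 1 of 5 Kupffer cell genes rose (Clec4f, 0.51; list median -0.28) and 1 of 6 macrophage genes (Cd68, 1.26; list median 0.15), where 7.2% of all genes rose. Ptprc had 1.64 to 2.77 FPKM in HP, 1.30 to 2.85 FPKM in HR and 1.92 to 2.75 FPKM in ND liver.

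Every member was higher in eWAT than in liver, with 1 exception. Over all 18 libraries, 7 of 7 were higher in eWAT in HP (43.1% of 15006 genes tested were) with differences of 3.08 (Ciita) to 4.54 (H2-Aa and H2-Ab1), and 7 of 7 in HR (43.1%) with 2.38 (Ciita) to 4.71 (H2-Aa). In ND 6 of 7 were higher (39.6%), by 2.30 (H2-DMb1) to 3.34 (H2-Eb1), and Ciita, at 0.86, was not called (limma adjusted p = 0.139). Its eWAT library ND 1, at 0.150 FPKM, overlapped liver, and its difference turned to -0.25 after quantile normalization. The median gene was higher in eWAT by 0.85 in ND, 0.84 in HP and 1.00 in HR, a shift that all these differences include. In mean FPKM without ND 1 and HR 2, the fold of eWAT over liver was 16.6 (H2-DMa) to 37.1 (Ciita) in HP, 27.8 (H2-DMa) to 51.6 (Ciita) in HR and 6.88 (Ciita) to 13.1 (H2-Eb1) in ND.

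The diet differences in eWAT were then set against those in liver in 1 model, as the difference of their contrasts. Over 18 libraries none of the 7 genes passed in HP against ND (adjusted p 0.0836 to 0.452, where 4.98% of genes did), in HR against ND (0.776 to 0.894, 0.06%) or in HP against HR (0.922 to 0.984, 0.0733%). At an unadjusted p under 0.05 there were 3 of the 7 in HP against ND (H2-Ab1, H2-DMb1 and Ciita; 19.3% of all genes), 2 in HR against ND (H2-Ab1 and Ciita; 6.34%) and none in HP against HR (6.57%). Over the 16 libraries without eWAT ND 1 and HR 2, the diet difference was larger in eWAT for H2-DMb1 and Ciita in HP against ND and for H2-DMa, H2-DMb1 and Ciita in HR against ND. In that fit 27.9% of 13730 genes were called in HP against ND, about the share of the members (2 of 7), and 7.16% in HR against ND (3 of 7 members). H2-DMb1 and Ciita were also called over 18 libraries less eWAT HR 2 in HP against ND, and Ciita alone less eWAT ND 3. The share of all genes called in those fits is not given here, so these calls cannot be set against it.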

How the data were processed

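Messenger RNA of 18 samples was sequenced from TruSeq libraries of TRIzol-extracted RNA, per the labels' protocols. The authors deposited 1 table of FPKM values, made with CASAVA 1.8.2, STAR 2.4.0 and Cufflinks 2.1.1, per the submitters' processing notes. What each tool did, and with which genome build, annotation and strandedness, is not given in the sources used here. Reads of overlapping or antisense genes may therefore be mixed. The table had 23474 gene identifiers, of which 22671 were named from the supplied table of gene names (H2-Aa ENSMUSG00000036594, H2-Ab1 ENSMUSG00000073421, H2-Eb1 ENSMUSG00000060586, Cd74 ENSMUSG00000024610, H2-DMa ENSMUSG00000037649, H2-DMb1 ENSMUSG00000079547, Ciita ENSMUSG00000022504), and 0 columns were left without a sample.

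Groups came from the samples' titles. The test was limma 3.58.1 (R 4.3.3) on log2(FPKM + 1) with a variance trend. Genes reaching 1 FPKM in 3 or more libraries of a fit entered it, at an adjusted p of 0.05. All groups of a tissue shared 1 fit, and both tissues shared 1 fit for tissue comparisons. FPKM values are shares of a library, so RNA of another tissue lowers all other values. Intervals are at 95%. The X box letters were shortened at both ends after a first search with longer letters had been seen. The pipeline was tested on simulated data. The members and gene lists, the named genes (all 7 members, up to 4 of a list by smallest p, genes used as a measure of a cell type, and 8 by likeness in each tissue without predicted or clone names) and the removal of 2 libraries were chosen with earlier results of these data known.

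Alternatives were a pseudocount of 0.1, no filter, quantile normalization, median-ratio rescaling, no variance trend, a replicate block, the compared groups alone, fewer libraries, and each library left out. Figures were drawn with matplotlib 3.10.9.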

Additional observations from a re-analysis of the deposited data

Results flagged for a closer look

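In 5 cases the diet difference of a gene was larger in eWAT than in liver by a test of that difference over the 16 libraries without eWAT ND 1 and HR 2. In HP against ND these were H2-DMb1, with a difference between tissues of 1.95 on the log2 scale (limma adjusted p = 0.00338), and Ciita, with 1.64 (adjusted p = 0.000216). In HR against ND they were H2-DMb1 with 2.09 (adjusted p = 0.0104), H2-DMa with 1.46 (adjusted p = 0.0341) and Ciita with 1.54 (adjusted p = 0.0021). In the same fit 27.9% of all genes were called in HP against ND, about the share of 2 in 7 members, and 7.16% in HR against ND, where 3 of 7 members were. None of these 5 was called over all 18 libraries, where the differences were 2.07 for H2-DMb1 and 2.22 for Ciita in HP against ND, and 1.47 for H2-DMb1, 0.80 for H2-DMa and 1.52 for Ciita in HR against ND. Both tissues share 1 estimate of the spread per gene in this model, and liver Ciita is below 1 FPKM in every library, where a pseudocount of 1 understates differences.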

How the results depend on the processing

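The members called in eWAT rest on which libraries enter. In HP against ND over 9 libraries, 0 were called, and 1 (H2-DMb1) with the compared groups alone, 7 with HP 1, HR 2, ND 1 and ND 3 (over 1000 FPKM of spermatid genes) left out, and 0 to 1 with each library left out (1 without HR 2). In HR against ND over 9 libraries, 6 were called without those 4 libraries and 0 to 0 with each library left out. Over 7 libraries, HP against ND gave 7 under each alternative run. HR against ND gave 7, but 2 without a filter, 3 after median-ratio rescaling, 4 without a variance trend, 1 with the compared groups alone and 1 to 6 with each library left out. HP against HR gave 0, but 1 with the compared groups alone and 0 to 1 with each library left out. In liver HP against HR gave 0, and 0 to 2 with each library left out. The tissue difference went to 2 in HP against ND and 3 in HR against ND over 16 libraries, and to 0 to 2 and 0 to 1 with each library left out. The eWAT excess over liver in ND gave 6 to 7 with each library left out and 5 after quantile normalization, which gave 6 in HR. The number of all genes called moved between these fits as well. In eWAT HP against ND over 9 libraries it was 304 of 14430, 331 of 13621 with the compared groups alone and 593 of 13891 without HR 2. Over 7 libraries it was 3013 of 13054, and 1508 of 12940 without HP 3. For eWAT against liver in ND it was 7453 of 15006, and 4438 after quantile normalization, which gave 4816 in HR. The causes were not tested.

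With the replicate number as a block, the members called were 0 in HR against ND over 7 eWAT libraries, H2-DMb1 no longer among them. In that fit 76 of 13054 genes were called, against 540 without the block. In liver HP against HR the block gave 2 members (H2-Aa and H2-Eb1), where 872 of 10633 genes were called. Deviations of same-numbered libraries correlated at -0.843 to 0.625 in eWAT, -0.348 to 0.428 in liver and -0.141 to 0.211 between tissues. The eWAT deviations include those of ND 1 and HR 2, and between tissues no differently numbered libraries were compared. Whether the numbers pair the samples, or the tissues of a mouse, is therefore not known.

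Directions turned for values that were not called. H2-DMa in eWAT HP against HR over 9 libraries was -0.34 without the 4 libraries and -0.14 to 0.59 with each library left out, and Ciita over 7 libraries was -0.074 to 0.50. In liver HP against ND, Cd74 was -0.023 after quantile normalization, and with each library left out Cd74 was -0.18 to 0.44, H2-Ab1 -0.17 to 0.48, H2-DMa -0.036 to 0.42 and H2-DMb1 -0.0061 to 0.48. Ciita in ND, eWAT against liver, was -0.25 after quantile normalization. The tissue difference in HP against HR turned over 16 libraries for Cd74 (0.077 to -0.58) and H2-DMb1 (0.60 to -0.14). Of 1814 single-gene values under alternatives, which leave out that comparison, 1712 kept their direction and their side of the threshold. A lone library left in a group was assumed to vary like the other groups. FPKM carries no depth, so no counting error could be given.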
